A study of Danio rerio with 20 samples.

Results

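The cells described here were olig2 reporter cells from the uninjured spinal cord of adult zebrafish, and they make up 10 of the 20 RNA sequencing libraries of the series. The 10 were chosen by their label alone, as the sham-operated group. The fish carried the transgene Tg(olig2:eGFP), which places enhanced green fluorescent protein under control of olig2, and no other allele is given. Sham fish went through the operation of the lesion group, where the cord was cut 5 mm caudal to the junction with the brainstem, but their own cord stayed intact. Pieces of about 0.5 mm came from 9 cords per group, were dissociated with enzymes, stained for living cells and sorted by fluorescence. The pieces of the group were handled together, so the 10 libraries may be portions of 1 pool of cells, and the spread between them may be technical. The 10 libraries from 7 days after the cut were not compared. The number of cells per library, the kit and any tagging of molecules are not given in the sources read.

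Oligodendrocytes wrap axons of the central nervous system in myelin and arise from progenitors that persist in the adult cord. Olig2 is the transcription factor that specifies this lineage, Sox10 is its partner through all later steps, and Mbpa is a major protein of compact myelin. In the embryonic cord olig2 is also active in the progenitors of motor neurons, and green fluorescent protein is stable, so reporter cells can include descendants that no longer transcribe olig2.

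The labels call the sorted cells oligodendrocyte progenitor cells. The oligodendrocyte genes cd59a and plp1b were the most abundant nuclear genes in every library, while genes of the progenitor list summed to 4776 to 11058 TPM, against 121822 to 191127 for the myelin list. Of 43 progenitor genes, 33 had a mean above 1 TPM and 7 above 100 TPM. PDGFRA, the growth factor receptor by which progenitors are usually recognised, had 156 counts in replicate 9 and 0 in the other 9 libraries. CSPG4, the progenitor surface proteoglycan also known as NG2, had at most 57 counts in any library. Since genes of both stages were present, the cells are called olig2 reporter cells below. In such bulk samples fewer cells of a type and less RNA per cell cannot be told apart.

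Library totals ran from 7134670 to 10264810 counts. A library held counts of 10328 to 13117 genes, and mitochondrial genes took 2.18% to 2.99% of the counts. Rank correlations over all genes between the 45 pairs of libraries ran from 0.667 to 0.764. No pair looked like a single library deposited again, since every pair differed by at least 102 times the sampling noise (chi-square per degree of freedom, over genes with at least 10 counts in the pair). Replicates 1, 2 and 3 stood apart from the rest. Replicates 1 and 3 held the fewest genes, 10723 and 10328, and were both near 0 for a group of genes described below. Replicate 2 had the lowest sum of myelin genes and the highest sums of progenitor and ribosomal protein genes.

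The reporter's own gene was high in every library. Levels are given as TPM, the share of a gene in all transcripts, computed from the counts and exon lengths and scaled so that each library sums to the same total. This scaling fits libraries that cover whole transcripts, but the library type was not stated. OLIG2 ranged from 7442 TPM in replicate 9 through a median of 9303 to 11849 in replicate 5, with a mean of 9598 ± 1310 (SD, n = 10). Its lowest library lay above the highest library of the cytoskeletal actin gene actb2, at 6798 TPM. The cells were sorted for the olig2 reporter, so this level describes cells selected through the same gene. Whether transcripts of the transgene added to the counts of OLIG2 was not tested. SOX10 was far lower, at 262 TPM in replicate 3, a median of 404 and 740 in replicate 8. The level of mbpa was 15158 TPM in replicate 2, 22313 in the median and 25728 in replicate 3. No library lacked any of these 3 genes, and replicate 2 lay apart from the rest for mbpa, where the next library was at 20558 TPM.

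The 15 nuclear genes with the highest mean level were mostly known from fish myelin, its glia or the cytoskeleton. The most abundant was cd59a, a membrane-anchored inhibitor of complement that zebrafish oligodendrocytes express strongly. It stood at 56219 TPM in replicate 2, a median of 84170 and 97442 in replicate 1, and its lowest library lay above the highest library of any other nuclear gene. Next came plp1b, a proteolipid of the myelin membrane, with a range of 29067 to 43947 TPM. The lowest plp1b library was in turn above the highest mbpa library. Below mbpa the ranges overlapped, so the order of the following genes is not fixed beyond the spread. They were si:dkey-200l5.4 at 19625 ± 4005 TPM and STMN1 (ENSDARG00000033655), a regulator of microtubules, at 15764 ± 2283.

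Lower in the same group of 15 stood tmsb4x, which binds actin monomers, at 8486 ± 1082 TPM. The myelin dehydrogenase dhrs12la, also known as 36K protein, reached 8151 ± 993 TPM. The tight junction protein of fish myelin cldnk reached 5434 ± 707 TPM. The heat shock chaperone hsp70l stood at 5442 ± 1441 TPM, and cd59b, the paralogue of cd59a, at 3901 ± 636. The clone-named genes si:ch211-133n4.4 and si:dkeyp-73d8.8 closed the group at 3797 ± 535 and 3776 ± 791 TPM. The housekeeping gene actb2 reached 5127 ± 649 TPM. Exons of dhrs12la and actb2 overlap another gene, and strand was ignored in counting, so their reads cannot be told apart from those of the neighbour.

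A small share of the genes carried much of the RNA. The top 3 nuclear or mitochondrial genes made up 14.2% of all TPM, the top 10 made up 22.1% and the top 100 made up 42.2%. The number of genes needed to reach 50% of the TPM of a library ran from 147 in replicate 1 to 246 in replicate 2.

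Lineage transcription factors other than OLIG2 and SOX10 were moderate and uneven. Of 27 listed factors, 13 had a count in all 10 libraries (48.1%), 8 in 4 to 9, 3 in 1 to 3 and 3 in none. Among all genes in the table, 15.4% were in all 10 and 36.2% in none. Presence went with level, as given below, and no list was compared with genes matched for level. NKX6-2, a homeobox factor of maturing oligodendrocytes, had 270 ± 113 TPM and was lowest in replicate 2 and highest in replicate 3. The sister gene olig1 had 27.7 TPM in replicate 1, a median of 207 and 486 in replicate 2. MYRF, which switches on myelin genes, ranged from 44.7 to 122 TPM. SOX6, which holds progenitors back from maturing, ranged from 0.0291 TPM in replicate 1 to 26.9. The factor NKX2-2 was missing from replicate 5 and had 1 count in replicate 10, against 839 counts in replicate 2.

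Progenitor genes split into steady and patchy ones. Of 43 listed genes, 16 were present in all 10 libraries (37.2%, against 15.4% of all genes), 20 in 4 to 9 and 7 in 1 to 3. GPM6A (ENSDARG00000004621), a neuronal and glial membrane glycoprotein, was at 2249 TPM in the lowest library, 2499 in the median and 2599 in the highest. Its paralogue GPM6A (ENSDARG00000055455) had 639 to 1691 counts in 8 libraries, 1 in replicate 1 and 0 in replicate 3. SERPINE2, a secreted protease inhibitor, was present throughout at 957 to 1755 TPM, and so was PTPRZ1 (ENSDARG00000020871), a receptor phosphatase of progenitors, at 208 to 518. SEMA5A, a guidance protein, had 0 counts in replicate 1 and 828 to 11641 in the others. The brain proteoglycan bcan behaved the same way, with 0 counts in replicate 1 and 739 to 4663 elsewhere. GPR17, a receptor of cells that are about to form myelin, was at 0 in replicates 1, 5 and 10, at 1 count in replicate 4 and at 95 to 980 in the other 6.

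Of 38 myelin genes, 23 were present in all 10 libraries (60.5%), 6 in 4 to 9, 6 in 1 to 3 and 3 in none. Among all genes in the table, 15.4% were in all 10 and 36.2% in none. Besides those above, TSPAN2, a tetraspanin of myelin, ranged from 1536 to 2718 TPM. Mag, an adhesion molecule at the contact with the axon, ranged from 709 to 1350 TPM, and zwi, a fish myelin gene, from 428 to 777. HAPLN2, a matrix link protein of the node of Ranvier, was uneven, with 0 and 1 counts in replicates 3 and 4 and 425 to 1724 in the rest. The summed level of the list was 121822 TPM in replicate 2, 170268 in the median and 191127 in replicate 3. The progenitor list ran the other way at its ends, with 11058 TPM in replicate 2 and 4776 and 5784 in replicates 1 and 3. Much of this difference was 1 gene, FABP7 (ENSDARG00000007697), which the radial glia list also holds. It had 4694 TPM in replicate 2 and 41.0 and 687 in replicates 1 and 3.

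**Figure D1:**
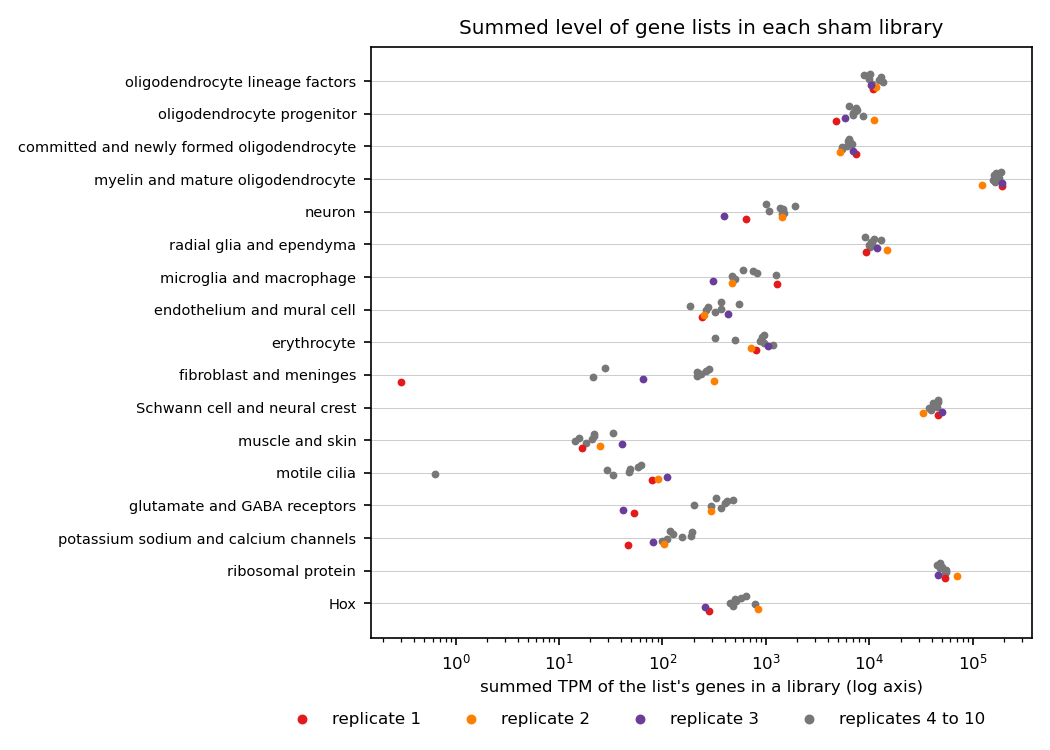
Summed TPM of each gene list (rows) in each of the 10 sham libraries (points, log axis); replicates 1, 2 and 3 are coloured and the others grey. Replicate 2 is lowest for myelin genes at 121822 TPM, and replicates 1 and 3 are lowest for neuron, glutamate and GABA receptor, channel and Hox genes.

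Markers of some other cell types were scarce, while the lists of others were present near or above the share of all genes. Among all genes in the table, for comparison, 15.4% were present in all 10 libraries and 36.2% in none. Of 36 microglia and macrophage genes 24 had no count in any library, among them csf1ra, csf1rb, P2RY12 and c1qa. The only one present in all 10 was apoeb, a lipid carrier that glia also make, at 278 to 1238 TPM. No neutrophil or lymphocyte gene of 20 was present in all 10, and their summed level was at most 9.78 TPM. The 4 haemoglobin genes on the erythrocyte list, hbaa1, hbaa2, hbae1.1 and hbae3, were at 0 in every library, which over all 82255284 counts allows up to 0.0365 CPM (counts scaled to library total). Of 15 erythrocyte genes 2 were in all 10 libraries (13.3%) and 6 in none. The erythrocyte sum of 321 to 1161 TPM came mainly from cahz, a carbonic anhydrase that the myelin list also holds. No fibroblast gene of 25 was present throughout, and its summed level of 0.296 to 313 TPM came mainly from ptgdsb.2, a prostaglandin synthase. DCN, a matrix proteoglycan, had counts in 3 libraries, and COL1A2, a collagen, had 193 counts in replicate 8 and at most 6 elsewhere. Of 33 endothelial and mural genes 4 were present throughout (12.1%, near the share of all genes) and 12 had no count in any library. The 4 were SLC2A1 (ENSDARG00000001437), a glucose transporter, acta2, the smooth muscle actin, and both copies of the lipid transporter MFSD2A. The endothelial adhesion gene cdh5 had 1 count in each of 3 libraries. Motile cilia genes of the ependyma were in all 10 in 0 of 26 cases. Muscle and skin genes were present throughout in 5 of 24 cases (20.8%), above the share of all genes, but summed to only 14.3 to 40.8 TPM. Of 22 Schwann cell and neural crest genes 5 were in all 10 libraries (22.7%) and 7 in none. The Schwann cell sum, 33164 to 50600 TPM, came mainly from plp1b, while its own marker EGR2 had 212 and 168 counts in replicates 2 and 6 and at most 4 elsewhere.

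Neuronal genes were present at low level. Of 47 listed genes, 7 were in all 10 libraries (14.9%) and 16 in none. These shares were near those of all genes in the table, 15.4% in all 10 and 36.2% in none. The sum of the neuron list ran from 397 TPM in replicate 3 to 1896 in replicate 9. UCHL1, a ubiquitin hydrolase abundant in neurons, had 108 to 532 TPM, and ELAVL3, an RNA-binding protein, had 118 to 216. Genes that define neuron classes were near 0. The motor neuron genes CHAT, SLC18A3, MNX1 and ISL1 had no count in any library, and the transmitter genes GAD2, SLC32A1 and SLC6A5 had a count in 1 library each. Of 41 genes of radial glia and ependyma, which line the central canal, 16 were in all 10 libraries. They were led by genes that oligodendrocytes share, such as GLUL (ENSDARG00000099776), the glutamine synthetase, at 3016 to 4980 TPM. GFAP, the classic filament of radial glia, had 0 counts in replicates 7, 8 and 10 and 96 to 367 in the other 7. The part of other cell types in the patterns below was not tested.

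**Figure D2:**
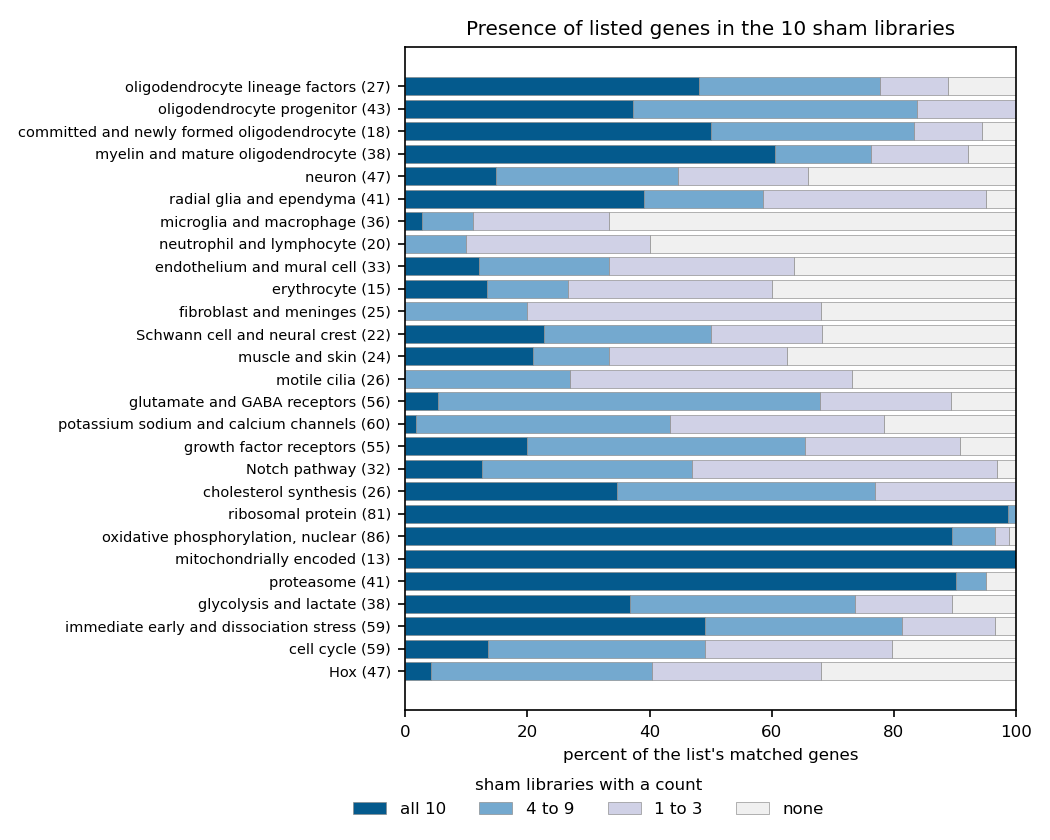
Share of each list's matched genes (rows, number of genes in brackets) that had a count in all 10, in 4 to 9, in 1 to 3 or in none of the 10 sham libraries. Ribosomal, mitochondrial and proteasome genes are mostly present throughout, and microglial, lymphocyte and fibroblast genes mostly are not.

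Across the whole table, 20594 of 32266 genes had a count in at least 1 sham library. The counts of genes were highest at the ends of the range. There were 4977 genes in all 10 libraries, which is 24.2% of the genes detected, and 3444 in exactly 1. Between these ends the classes were of similar size, from 1291 genes in 6 libraries to 1990 in 2. Genes present in 1 to 3 libraries numbered 6963, or 33.8% of those detected. The genes in all 10 made up 90.4% of the mean TPM, those in 4 to 9 made up 8.97% and those in 1 to 3 made up 0.621%. Without replicates 1 and 3, a choice made after their values were seen, 5874 genes were present in all 8.

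Many genes were at 0 in some libraries and well counted in others. Of the genes in 1 to 3 libraries, 3155 never passed 2 counts, but 1268 reached at least 100 counts in some library. Of all genes in the table, 7463, 36.2% of those detected, had 0 counts in at least 1 library and 100 or more in another. Among the 8654 genes in 4 to 9 libraries, 33.3% of the values were 0, 20.4% were 1 to 9, 16.3% were 10 to 99 and 30.0% were 100 or more. Whether molecules were tagged was not stated, so a count of reads cannot be turned into a number of transcripts, and the part of depth and amplification in these zeros was not tested.

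**Figure D3:**
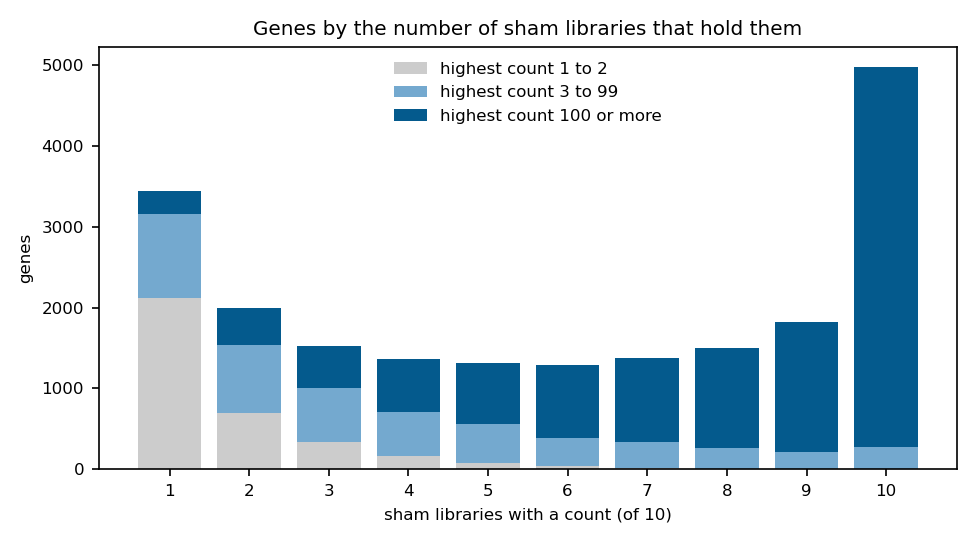
Number of genes (vertical axis) by the number of sham libraries with at least 1 count (horizontal axis), split by the gene's highest count in any library. The 4977 genes in all 10 libraries and the 3444 in a single library form the ends, and 289 of the latter reach 100 counts.

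Level and presence went together. All 118 genes over 1000 TPM were in all 10 libraries, as were 1251 of 1276 genes (98.0%) between 100 and 1000 TPM. The share fell to 49.0% of 5811 genes between 10 and 100 TPM, 10.3% of 6168 genes between 1 and 10, and 1.77% below 1. The 25 genes over 100 TPM that missed a library included SCG3, a protein of secretory granules, and CXCL12, a chemokine. SCG3 had 0 counts in replicate 1 and 737 to 4778 elsewhere. CXCL12 had 0 counts in replicate 1 and 602 to 2790 elsewhere. The folding chaperone CANX had 0 counts in replicate 3 and 1216 to 3294 in the other 9. In 10 of the 25 the only library at 0 was replicate 1, in 7 it was replicate 3, and 4 were at 0 in exactly these 2.

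The genes of few libraries with the highest mean counts were absent from most libraries and high in 1 to 3. COCH, an extracellular matrix protein, had 3128 counts in replicate 7, 263 in replicate 10, 141 in replicate 9 and 0 in the rest. ARG2, the mitochondrial arginase, had 1655 in replicate 3 and 412 in replicate 5. The connexin GJA1, a gap junction gene of astroglia and radial glia, had 1020 in replicate 3 and 2 in replicate 4. The nucleoside transporter SLC29A2 was likewise a gene of replicate 3, with 1120 counts there and at most 2 elsewhere. Others of the group were MTMR1, DCN, SLC35F2 (ENSDARG00000069745), inka1a and SLC26A5, each with over 500 counts in its highest library. Exons of MTMR1 overlap another gene.

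Several cell cycle genes were high in single libraries as well. Of 59 cell cycle genes, 8 were present in all 10 libraries (13.6%, against 15.4% of all genes in the table). Among the 8 were STMN1 and HMGB2, which are also used outside division, and PCNA. Replicate 3 held 24 of the 59 at 100 counts or more and replicate 2 held 23, against 9 to 14 in the other 8. Over all genes, replicate 3 had the fewest at 100 counts or more, 6012. Replicate 2 had 7262 such genes, within the range of 6087 to 7501 in the other 8. Of the 59, 6 had at least 100 counts in replicate 3 and under 10 in every other library, and 3 did so in replicate 2, 1 in replicate 4 and 1 in replicate 10. Genes of this kind were not limited to the cell cycle. All genes were counted at a stricter limit, at most 2 counts in every other library. By this limit 60 of all genes were confined to replicate 3 and 97 to replicate 2. The other 8 libraries had 26 to 78 each. Of these genes, 3 in replicate 3 and 3 in replicate 2 were cell cycle genes. The count of 6 in replicate 3, at under 10 elsewhere, has no count over all genes beside it. CCNA2, the cyclin of S and G2 phase, had 348 counts in replicate 3 and 0 in the other 9 libraries. CDK1, its kinase, had 700 counts there and at most 5 elsewhere, and TOP2A, which untangles chromosomes, had 429 and at most 6. The condensin subunits NCAPG and SMC2 had 702 and 492 counts there and at most 1 elsewhere. The 3 of replicate 2 were CCNB1, the mitotic cyclin, with 125 counts, the cyclin CCNE2 with 265 and its kinase CDK2 with 189. CDC20, an activator of mitotic exit, had 128 counts in replicate 4 and 0 elsewhere, and CDT1, which licenses replication, had 187 in replicate 10 and at most 9 elsewhere. MCM2, a subunit of the replicative helicase, had 1181 counts in replicate 2 and at most 41 elsewhere. PCNA, the replication clamp, was present throughout at 96.6 to 634 TPM, with the highest value in replicate 3.

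**Figure D4:**
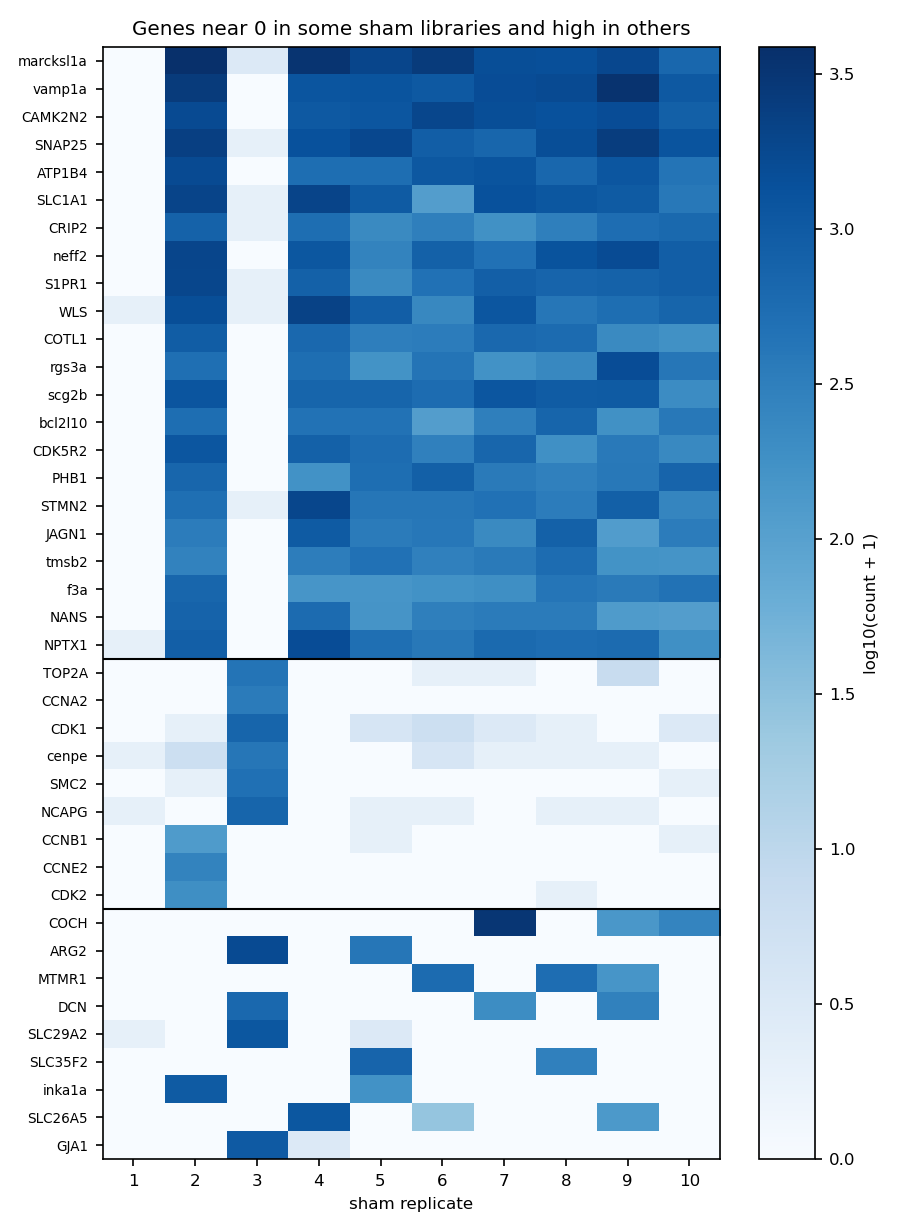
Counts as log10(count + 1) of genes (rows) in the 10 sham libraries (columns). The top block holds 22 of the 61 genes near 0 in replicates 1 and 3, the middle block cell cycle genes of replicate 3 or 2, and the bottom block 9 genes of few libraries.

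Spread between libraries was described by the coefficient of variation (CV, the SD divided by the mean) of counts scaled to library size by trimmed means of M values (TMM). Among the 4977 genes present throughout the median CV was 0.516, with quartiles of 0.366 and 0.692. Counting error alone would give a median of 0.0454. From 1 TPM upwards the CV fell with level, from a median of 0.907 between 1 and 10 TPM to 0.179 over 1000 TPM. The classes between had medians of 0.562 and 0.314. Below 1 TPM the median was lower again, at 0.664 over 128 genes. Only 148 of the 4977 genes were within 2 times their counting CV. The highest library of a gene was 6.66 times its lowest in the median. The CV of OLIG2 was 0.142, that of mbpa 0.161 and that of SOX10 0.281.

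The steadiest and most variable genes are given among genes present in all 10 libraries that have a gene symbol other than a clone name and a mean of at least 100 counts. Over 1000 TPM the steadiest of these were GPM6A (ENSDARG00000004621) with a CV of 0.0509, SLC25A5, the mitochondrial carrier of ADP and ATP, with 0.0775, and TMBIM6, an inhibitor of cell death in the endoplasmic reticulum, with 0.0849. GPM6A had 41118 to 59528 counts, but its exons overlap another gene. Between 100 and 1000 TPM the lowest CVs belonged to the tetraspanin CD81 (ENSDARG00000036080), the peroxidase PRDX1 (ENSDARG00000025350) and the ribosomal protein RPL23A, all between 0.0838 and 0.0984. Between 10 and 100 TPM the lowest of these genes were TMEM9B, NDUFB4, a subunit of respiratory complex I, and ube2ib, which conjugates SUMO. Between 1 and 10 TPM, ENPP2, also known as autotaxin, was the lowest of them with 62 to 144 counts and a CV of 0.295, while the lowest CV of any gene in that class was 0.130.

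**Figure D5:**
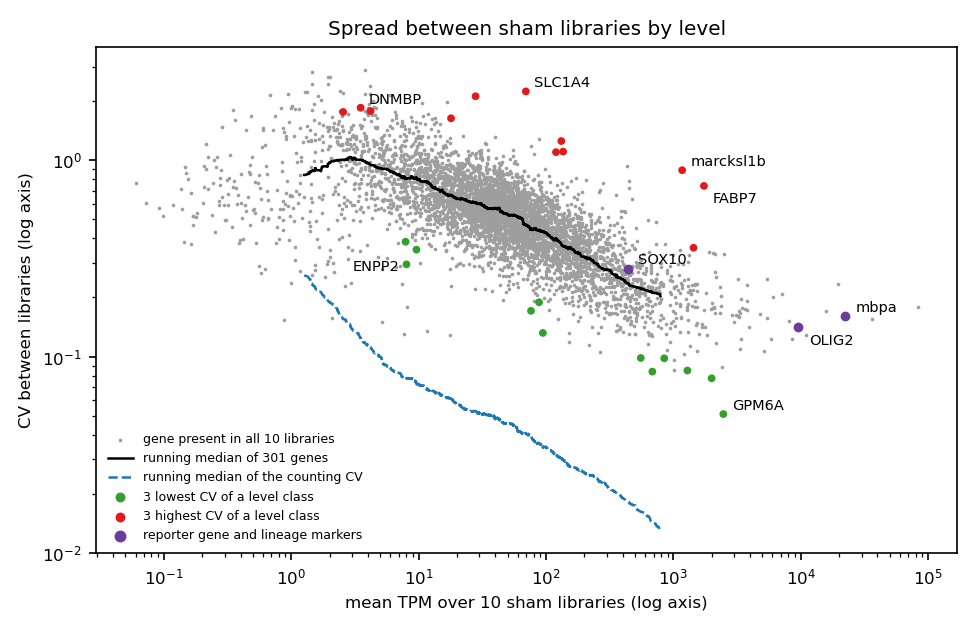
CV between the 10 sham libraries (vertical, log axis) against mean TPM (horizontal, log axis) for the 4977 genes present in all 10. The median CV of a level class falls from 1 TPM upwards, and the running median lies above the counting CV throughout. Green and red points are the 3 lowest and 3 highest of each level class from 1 TPM upwards. They were taken among genes with a symbol other than a clone name and a mean of at least 100 counts.

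Among the same genes, the most variable over 1000 TPM were marcksl1b, a regulator of the actin cortex, FABP7 (ENSDARG00000007697), a fatty acid carrier of progenitors and radial glia, and HSPA2. Both marcksl1b and FABP7 were highest in replicate 2, at 4020 and 4694 TPM, and lowest in replicate 1, at 106 and 41.0. Their CVs were 0.891 and 0.741. SLC1A4, a transporter of neutral amino acids, had 6576 counts in replicate 2 and 5 to 526 in the others, a CV of 2.25. The chaperone hspa1b had 1743 counts in replicate 4, 888 in replicate 9 and at most 7 elsewhere, and reads shared with near-identical heat shock genes may have been divided or lost. Between 100 and 1000 TPM the early response gene ier2a led with 2336 counts in replicate 2, 1432 in replicate 6 and 124 to 478 in the rest. The low genes DNMBP, SLC38A10 and ZNFX1 had CVs of 1.76 to 1.85.

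Replicates 1 and 3 were near 0 for the same group of genes. There were 61 genes with at most 2 counts in both and at least 100 counts in each of the other 8 libraries, and 41 of them had 0 in both. Each of the other 44 pairs of libraries had 0 to 7 such genes. Replicate 3 alone was near 0 for a further 115 genes with at least 100 counts in all the others, and replicate 1 alone for 59. Each of the other 8 libraries had 9 to 37 such genes of its own. The 61 genes were chosen for this pattern, which is given with no test. They included genes of synaptic release. The membrane protein vamp1a had 0 counts in both and 1034 to 3475 in the others, and its partner SNAP25 (ENSDARG00000020609) had 0 and 1 against 687 to 2515. The synaptic adhesion gene nrxn1a had 0 and 0 against 176 to 2145.

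Others of the 61 encode transcription factors, receptors and signalling proteins. SOX5, the relative of SOX6, had 0 and 2 counts against 378 to 2199. ETV4, a target of fibroblast growth factor signalling, had 0 and 0 against 152 to 885. GRIN1 (ENSDARG00000027828), the obligatory subunit of NMDA receptors, had 0 and 0 against 594 to 1848, and S1PR1, a sphingosine phosphate receptor, had 0 and 1 against 223 to 1885. The most abundant of the 61 was marcksl1a, the paralogue of marcksl1b, with 0 and 2 against 668 to 3849 counts. The Wnt feedback gene AXIN2 had 1 and 0 against 156 to 466, and WLS, which carries Wnt proteins to the surface, had 1 and 1 against 234 to 2094. Of the 61 genes, 8 were on any of the 27 gene lists, which hold 1020 of the 32266 genes in the table.

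Without these 61 genes, 9 of the 27 list sums placed both libraries below or both above all of the other 8. This is a description with no test. Of these lists, only the neuron, progenitor, and glutamate and GABA receptor lists held any of the 61, with 3, 1 and 1 members. Leaving the 61 out could not change the other sums. Summed neuron genes stood at 639 and 397 TPM in replicates 1 and 3 and at 741 to 1207 in the other 8. Glutamate and GABA receptors summed to 52.5 and 41.9 against 165 to 395 TPM. Potassium, sodium and calcium channels summed to 46.1 and 81.3 against 99.7 to 193, Hox genes to 285 and 260 against 452 to 846, and progenitor genes to 4776 and 5784 against 6300 to 10984 TPM. The myelin sum was highest in these libraries, at 190009 and 191127 TPM against 121822 to 188100. Its largest part was cd59a, with 97442 and 92364 TPM in replicates 1 and 3 and 95740 in replicate 10. Not all myelin genes were highest there, since mbpa had 22271 TPM in replicate 1, against a median of 22313. Replicate 1 also had the fewest of the 38 myelin genes at 100 counts or more, 22. Genes of newly formed oligodendrocytes summed to 7350 and 7020 against 5230 to 6861 TPM. Most of this was cldnk, which the myelin list also holds, with 6354 and 6300 TPM in replicates 1 and 3. Cell cycle genes, mostly STMN1, summed to 20351 and 21125 against 12757 to 19090 TPM. Glycolysis genes were lower, at 4183 and 4147 against 4621 to 5837 TPM. None of the other 18 lists put both libraries below or both above all of the other 8. The libraries differed from each other as well, since FABP7 had 41.0 TPM in replicate 1 and 687 in replicate 3, and CDK1 had 0 counts in replicate 1 and 700 in replicate 3. Their totals, 7544285 and 8409133 counts, lay within the range of the others. The 2 carried different letters in their titles.

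Genes of basic cell machinery were present nearly throughout, against 15.4% of all genes in the table. They were also abundant, and 98.0% of all genes between 100 and 1000 TPM were in all 10 libraries. Of 81 ribosomal protein genes 80 were in all 10 libraries and RPL22L1, a paralogue of RPL22, was in 8. So were 77 of 86 nuclear genes of oxidative phosphorylation, all 13 listed mitochondrial ones and 37 of 41 proteasome genes. Their median CVs were 0.211, 0.302, 0.196 and 0.304. The medians of their mean levels were 531, 193, 1807 and 172 TPM. Their presence was not compared with that of genes matched for level. The ribosomal sum was 45436 TPM in replicate 9, a median of 51741 and 69811 in replicate 2. Glycolysis was led by GAPDHS at 1411 to 2382 TPM and by LDHB at 509 to 893, and 14 of its 38 genes were present throughout. Of 26 genes of cholesterol synthesis, the lipid most needed for myelin, 9 were in all 10 libraries. Insig1, which holds the pathway's switch in place, was the highest at 101 to 404 TPM. HMGCS1, an early enzyme, was at 0 in 5 libraries and at 133 to 547 counts in the other 5.

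Stress and immediate early genes were abundant. They rise with dissociation in many tissues, and without undissociated tissue their part in these levels was not tested. Of 59 listed, 29 were present in all 10 libraries (49.2%, against 15.4% of all genes). The sum of the list ran from 9685 TPM in replicate 1 through a median of 15137 to 21816 in replicate 2. JUN had 846 to 1893 TPM and FOS, its partner, 281 in replicate 1, a median of 915 and 1395 in replicate 8. ATF3, a stress factor, was uneven, at 1281 TPM in replicate 2, 1010 in replicate 8 and 108 to 550 in the other 8. Egr4 had 0 counts in replicate 1, 10242 in replicate 6 and 136 to 7951 in the rest. The heat shock genes hsp70.1 and hsp70.3, near-identical copies whose split is uncertain, were at 887 to 3386 and 864 to 3316 TPM.

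Among all genes in the table, 15.4% were present throughout. Of 56 genes for glutamate, GABA and glycine receptors 3 were in all 10 libraries, and 35 were in 4 to 9. The AMPA receptor gene GRIA2 (ENSDARG00000052765) led with 0 counts in replicate 1 and 199 to 3099 in the others. Of 60 channel genes 1 was in all 10 and 25 were in 4 to 9. Of growth factor and lipid receptors 11 of 55 were present throughout. LPAR1, the receptor for lysophosphatidic acid, had 19.4 to 112 TPM, and erbb3b, the neuregulin receptor of myelinating glia, had 1.75 TPM in replicate 2, a median of 42.6 and 90.1 in replicate 5.

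Of 32 Notch pathway genes 4 were in all 10 libraries (12.5%, against 15.4% of all genes). The ligand DLD was steady at 96.7 to 257 TPM, and MIB1, the ligase that activates ligands, at 21.0 to 44.3. Target genes were patchy. The near-identical copies her15.1 and her15.2, whose split is uncertain, had 0 counts in replicate 1 and up to 914 and 1530 in replicate 8. Her4.2 had 401 counts in replicate 3, 4 in replicate 9 and 0 in the rest, and her12 had 151 in replicate 3 and 0 elsewhere.

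Hox genes, which mark position along the body axis, gave a profile whose mean was highest in paralogue groups 7 to 9. HOXB7 was the highest, at 46.7 TPM in replicate 3, a median of 180 and 263 in replicate 8. HOXB7 and HOXC8 were the 2 of 47 present in all 10 libraries (4.26%, against 15.4% of all genes). Summed over the genes of a paralogue group, mean TPM was 47.3 in group 3, 9.94 in group 4 and 39.0 in group 5. It was 59.3 in group 6, 185 in group 7, 89.3 in group 8 and 82.8 in group 9. The sum of group 7 is HOXB7 alone. Between libraries the sum ran from 7.84 to 155 TPM in group 8 and from 0 to 172 in group 9. It ran from 4.58 to 108 TPM in group 3 and from 16.4 to 133 in group 6. These ranges overlapped, so the order of these groups is not fixed beyond the spread. Summed mean TPM was 15.7 in group 10, 0.0474 in group 11 and 0.679 in group 12. No gene of group 13 had a count. In groups 1 and 2 a single gene each had counts, in 1 library for HOXB2 of group 2. The pieces matched the site 5 mm caudal to the brainstem, per the labels' protocols. No other region was available for comparison.

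The first principal component of log2 scaled counts over the 4977 genes held 17.4% of the variance, and replicate 3 stood alone at its end with a loading of 0.900, against -0.226 to 0.164 in the other 9. The next 8 components held 7.50% to 12.2% each. Genes at the end away from replicate 3 included RASSF2, with 2 counts in replicate 3, 82 in replicate 1 and 2023 to 6449 in the other 8, and PTPRN2, a phosphatase of secretory vesicles, with 1, 25 and 629 to 2047. Genes at the other end were low in general and high in replicate 3, such as znf983 with 436 counts there and at most 53 elsewhere.

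Library measures were not related in a way that held up across the 10 libraries. Of 4 relations computed, the nearest was between detected genes and the share of counts in the top 50 genes, with Pearson's r = -0.593 (permutation p = 0.0740, adjusted 0.296) and Spearman's rho = -0.564 (permutation p = 0.0969, adjusted 0.388). Without replicates 1 and 3, the libraries farthest from the median of detected genes, r was -0.0622, so the relation rests on them. Total counts and detected genes gave r = 0.164 and rho = -0.00606, detected genes and the mitochondrial share r = -0.134 and rho = 0.00606, and OLIG2 and mbpa levels r = 0.0214 and rho = 0.0182, with adjusted permutation p-values of 0.954 for each r and 1 for each rho. Without the 2 libraries farthest from the median these r were 0.0202, -0.415 and 0.171.

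The titles carry a letter, A in 6 libraries and B in 4, whose meaning is not given. The quasi-likelihood test of edgeR called 0 of 10448 genes different between the letters (0% called, adjusted p under 0.05), and 234 had an unadjusted p under 0.05. DESeq2 called 279 of 18111 genes (1.54%), 50 of them higher in B, and limma-voom called 1 of 10448 (0.00957%). In simulated libraries of this size the edgeR test recovered 13 of 100 genes changed 4-fold and 29 of 100 changed 16-fold, so most differences would be missed at this spread. Totals, detected genes, mitochondrial share and the share of the top 50 genes did not pass a two-sided exact permutation test over the 210 arrangements. The lowest p of the 4 was 0.352 for totals (adjusted 0.943), with 8463632 ± 1068504 counts in A and 7868373 ± 638705 in B (SD, n = 6 and 4). A p that misses the threshold does not show that the letters are alike.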

How the data were processed

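Read counts for each gene were deposited by the authors as 1 table with exon lengths; only its 10 sham columns were used here, matched to samples by title, and the 10 lesion columns were not. Per the submitters' processing notes, the tools were bcl2fastq 2.19.1, GSNAP 2018-05-30 and featureCounts 1.6.2, with genome build GRCz10. Genes were those of Ensembl release 87, counted from a mapping quality of 1 upwards and without regard to strand, per the file headers. Of 32358 rows, 92 are spike-in sequences, with 1 count in the sham libraries together; they were left out. A library total of 7134670 to 10264810 counts makes 3 counts worth 0.292 to 0.420 CPM. Intervals and limits cover counting error only.

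TPM was computed from the deposited counts and lengths, with Python 3.11.15, numpy 2.4.6 and pandas. A gene was called present from 1 count. CVs used TMM library sizes from edgeR 4.0.16 (R 4.3.3). Title letters were compared with edgeR's quasi-likelihood test (filterByExpr, Benjamini-Hochberg adjustment, threshold 0.05), with DESeq2 and limma-voom as alternatives. Library measures used exact permutation and relations used permutation with 100000 resamples, both two-sided, in scipy 1.17.1. Such p-values reflect the differences among libraries that may come from a single pool. On simulated data with CVs of 0.15, 0.3 and 0.6 the CV step returned medians of 0.147, 0.290 and 0.562.

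Symbols come from a table that covers 26433 genes and writes many in capitals; an identifier follows a symbol that several genes carry. The 27 gene lists hold 1090 symbols, of which 1026 matched. The members and lists were chosen with earlier results of these data known. Named genes follow a rule: the reporter gene and 2 markers; the 15 nuclear genes with the highest mean TPM; per level class the 3 lowest and highest CVs among named genes with a mean of at least 100 counts; the 10 genes of 1 to 3 libraries with the highest mean; up to 6 leading and 3 rarest members of each list; and the 6 largest loadings at each end of the first component. Not every gene under the rule is described, and some are not reported here. The 61 genes near 0 in replicates 1 and 3, the genes over 100 TPM that missed a library, and list members outside the rule were named after their values were seen.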

Additional observations from a re-analysis of the deposited data

Results flagged for a closer look

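Of 47 sets of 10 library values examined, covering library measures, list sums and the named abundant genes, 7 had 1 library far from the rest, by the size of its gap to the nearest other library relative to the whole range (Dixon's test). Chance flags about 1 in 20 such sets. The sets are not independent, since mbpa, for instance, is also part of the myelin sum. Replicate 2 gave 5 of the 7. Its myelin sum was 121822 TPM against 155511 in the next library, its mbpa level was 15158 TPM against 20558, and its ribosomal sum was 69811 TPM against 54660. Its actb2 level was 6798 TPM against 5410, and its cd59b level was 5542 against 4196. Its total count and mitochondrial share did not stand apart in this way. The Notch pathway sum was 1052 TPM in replicate 8 against 599 in the next library. The neutrophil and lymphocyte sum was 9.78 TPM in replicate 7 against 2.73, and it rested on 47 counts of nkl.2, a gene of lymphocyte granules.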

How the results depend on the processing

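The counts of genes present in all libraries and in 1 to 3, and the median CV, stayed within 1.5 times their value under every alternative run. Genes in all libraries numbered 4215 at a minimum of 3 counts, 3749 at 10 counts, 4882 with libraries thinned to the smallest total, 5968 in the 6 libraries of letter A and 5052 to 5406 with 1 library left out. Genes in 1 to 3 libraries ran from 4933 at 10 counts to 8395 in letter A. The median CV ran from 0.493, for genes with a mean of at least 100 counts, to 0.534 in letter A. Without replicates 1 and 3, a choice made after seeing the data, the values were 5874, 7277 and 0.523. Genes called between title letters were 0 with edgeR, 0 without its filter (2142 at an unadjusted p under 0.05), 0 with DESeq2 size factors and 0 with any library left out, but 279 with DESeq2's test and 1 with limma-voom; the cause was not tested. The 61 genes near 0 in replicates 1 and 3 became 41 at exactly 0 and 95 when the others needed 50 counts. Mean levels of the 16 named genes tested moved by less than 1 SD in all 176 recomputations. Leaving out 1 library, or keeping the 6 of letter A, cannot move a mean that far. Such runs could not fail and say nothing about how firm the levels are. By CPM, which ignores length, ranks moved by more than 1.5 times for 6 of 16 genes, such as tmsb4x to rank 28. No paired analysis was possible because a single group was analysed. The library type limits the length scaling.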

Other observations

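Genes well counted in 1 library and near 0 in all others gave each library a small set of its own. Between 26 genes in replicate 1 and 97 in replicate 2 had at least 100 counts in that library and at most 2 in each of the others. The genes named here were chosen after their values were seen. In replicate 4 they included mxb, a gene of the interferon response, with 981 counts against at most 1 elsewhere, and gbp2, a guanylate-binding protein, with 356 against at most 1. In replicate 1 they included cd74a, the chaperone of antigen-presenting proteins, with 620 counts against at most 2. In replicate 10 they included tap2a, a peptide transporter of antigen presentation, with 228 counts against 0, and in replicate 5 the histamine receptor gene hrh3, with 558 against at most 1. In replicate 2 they included HELLS, a chromatin remodeller of dividing cells, with 524 counts against at most 1.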
